A study of Mus musculus with 4 samples.

Results

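The genes described here are the immunoglobulin and T cell receptor gene segments of the mouse, as measured in c-Kit-positive bone marrow cells. A row of the expression table was a member when GENCODE gives it the biotype of an immunoglobulin or T cell receptor constant, variable (V), diversity (D) or joining (J) gene and when it read at least 1 TPM in at least 1 library. TPM is a relative abundance that is scaled for transcript length and sums to a fixed total over all transcripts of a library. Of 28987 genes in the table, 108 were such segments and 31 were members: 11 constant, 16 J, 4 V and 0 D segments. The rule used the TPM values themselves, so levels and differences of the members are given as a description, without p-values.

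All 4 libraries came from C57BL/6 mice that carried 1 partial tandem duplication allele of Mll (MllPTD/WT) and 2 floxed Runx1 alleles with Mx1-Cre, in which the Mx1 promoter, switched on by interferon in blood cells and in other tissues, drives the Cre recombinase. In 2 libraries (Hif1a-intact) no floxed Hif1a allele was named, and in the other 2 (labelled Hif1a-null) both Hif1a alleles were floxed as well. The cells were flushed from bones and selected with beads against CD117, the c-Kit receptor of stem and progenitor cells. The labels give no age, sex or number of mice and do not tell whether 2 libraries of 1 genotype came from different animals, so p-values measure the spread between these samples only, which may be technical. Hif1a transcript did not fall with the Hif1a-null label: it read 100.4 and 75.2 TPM in the Hif1a-intact pair and 98.8 and 113 TPM in those labelled Hif1a-null (limma, adjusted p = 0.479). A gene-level value includes exons outside the floxed part and does not check the deletion, so every direction below rests on the labels. Runx1, floxed in both groups, read 73.6 and 76.6 TPM against 48.4 and 46.7 TPM (limma, adjusted p = 0.0636), and a Runx1 difference cannot be told apart from Hif1a status. Kit read between 102 and 128 TPM and Cd34 between 179 and 251 TPM over the 4 libraries.

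Antigen receptor genes are assembled in developing lymphocytes from separate V, D and J segments, which the RAG recombinase joins, while the constant segment is added by RNA splicing. The immunoglobulin heavy chain is encoded at Igh and the light chains at Igk and Igl, and the T cell receptor chains at Tra, Trb, Trg and Trd. Unrearranged loci are also transcribed before they recombine, so a J or constant transcript alone does not show an assembled receptor. Heavy chain constant genes are used in turn during class switching, from Ighm, which encodes the constant part of IgM, to the Ighg genes of the IgG classes.

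The J segments carried most of the TPM, and they are very short. The sequences of the 7 immunoglobulin J members and of the delta chain segment Trdj1 are printed because these 8 transcripts are the most abundant J segments here. They are the longest annotated transcript of each segment in GENCODE vM21 (GRCm38), are given 5′ to 3′ on the coding strand, and have in capitals the first match to TGGGG (heavy chain segments) or TTNGG (the others) followed, after 4 bases of any kind, by GG. These letters encode the conserved Trp-Gly-X-Gly or Phe-Gly-X-Gly turn that follows the third hypervariable loop of the receptor.
Igkj1: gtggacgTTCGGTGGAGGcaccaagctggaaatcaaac
Igkj2: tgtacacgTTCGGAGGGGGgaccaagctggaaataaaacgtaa
Igkj4: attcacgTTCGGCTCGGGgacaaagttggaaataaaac
Igkj5: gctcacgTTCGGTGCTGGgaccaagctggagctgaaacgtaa
Ighj1: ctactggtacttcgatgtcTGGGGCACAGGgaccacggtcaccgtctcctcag
Ighj3: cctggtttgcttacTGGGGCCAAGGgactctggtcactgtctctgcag
Ighj4: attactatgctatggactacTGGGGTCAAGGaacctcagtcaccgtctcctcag
Trdj1: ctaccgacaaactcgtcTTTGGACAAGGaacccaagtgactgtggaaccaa
Searched on both strands, and with 2 transcripts holding both, either motif was found in 80.8% of 94 annotated J segment transcripts and in 3.85% of the first 54 bases of 141584 other annotated transcripts. The Trbj1-6 member held neither motif on its coding strand.

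The 16 J members were 38 to 54 bases long, against 348 to 2566 bases for the longest transcript of the 15 constant and V members. TPM divides reads by the effective length of a transcript, and that length was not given in the sources used here, so few reads can stand for a high TPM on so short a target. The lowest J value above 0 was 7.69 TPM, and 23 of 64 J values were listed at 0, with none between 0 and 1 TPM. Among the 60 constant and V values, 10 lay between 0 and 1 TPM. The step from 0 to the lowest value is thus wide for J segments, and a 0 there sets no useful upper limit. The table also held 64 rows under 100 bases that are no segment, of which 11 reached 1 TPM. The highest of them, the processed pseudogene Gm10180 of 78 bases, read 1546 and 3324 TPM in the Hif1a-intact pair and 1912 and 1533 TPM in those labelled Hif1a-null, with overlapping groups.

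**Figure D1:**
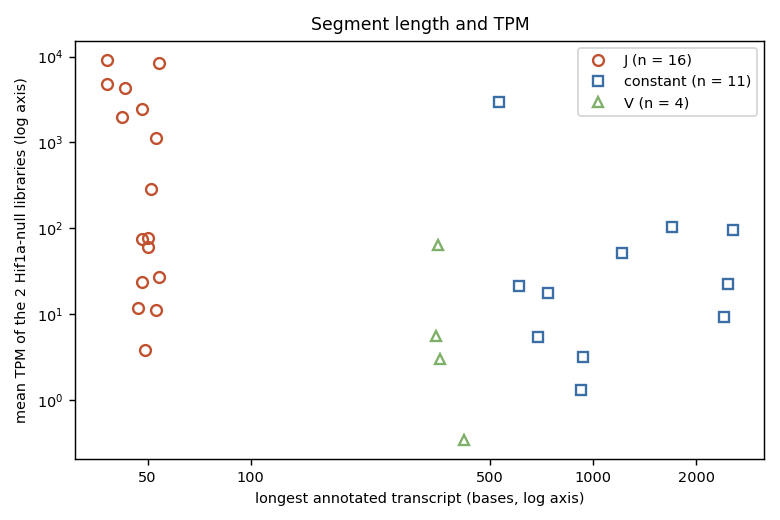
Each point is 1 of the 31 segments, with its longest annotated transcript in bases on the horizontal log axis and its mean TPM over the 2 libraries labelled Hif1a-null on the vertical log axis. The J segments stand at 38 to 54 bases and hold 7 of the 8 highest means, from 1115 TPM for Ighj1 to 9212 TPM for Igkj1, and Igkc is the only constant or V segment among those 8.

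Summed, the 31 members accounted for 0.373% and 0.258% of TPM in the Hif1a-intact pair and 3.53% and 4.04% in those labelled Hif1a-null. The groups did not overlap. The 7 immunoglobulin J segments held 86.2%, 84.9%, 88.4% and 89.7% of that member TPM, in the same order of libraries. Without the segments under 100 bases, the shares were 0.0516% and 0.0353% against 0.350% and 0.357%. Constant segments, which are long enough to be measured like other genes, summed to 484 and 333 TPM against 3288 and 3369 TPM, a ratio of group means of 8.15. J segments summed to 3089 and 2126 TPM against 30570 and 35456 TPM, a ratio of 12.7. Constant segments were 13.50% and 13.52% of member TPM against 9.69% and 8.66%, with groups that did not overlap. Rows were present for 15 of 21 annotated constant genes, 17 of 362 V genes and 74 of 84 J genes. These shares thus leave out part of the constant genes and most V genes. In bulk samples more cells of a type and more RNA per cell cannot be told apart.

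Of the 31 members, 24 were higher in both libraries labelled Hif1a-null than in both Hif1a-intact ones, 0 were lower in both, and 7 overlapped. Over all genes with at least 1 TPM in a library, 23.1% were higher in both and 31.1% lower in both. In the limma fit over the 11909 genes at or above 1 TPM in 2 or more libraries, 24 members were tested and 19 of them had an adjusted p under 0.05 and were higher, with 0 lower. The share called higher over all genes tested was 5.25%, and that called lower 2.02%. Of those 24, 7 were under 1 TPM in both of the Hif1a-intact pair and so entered the fit only through the group where they were high. Since the members were chosen by these same values, these calls are no independent test of the segments, and nothing is read from them.

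**Figure D2:**
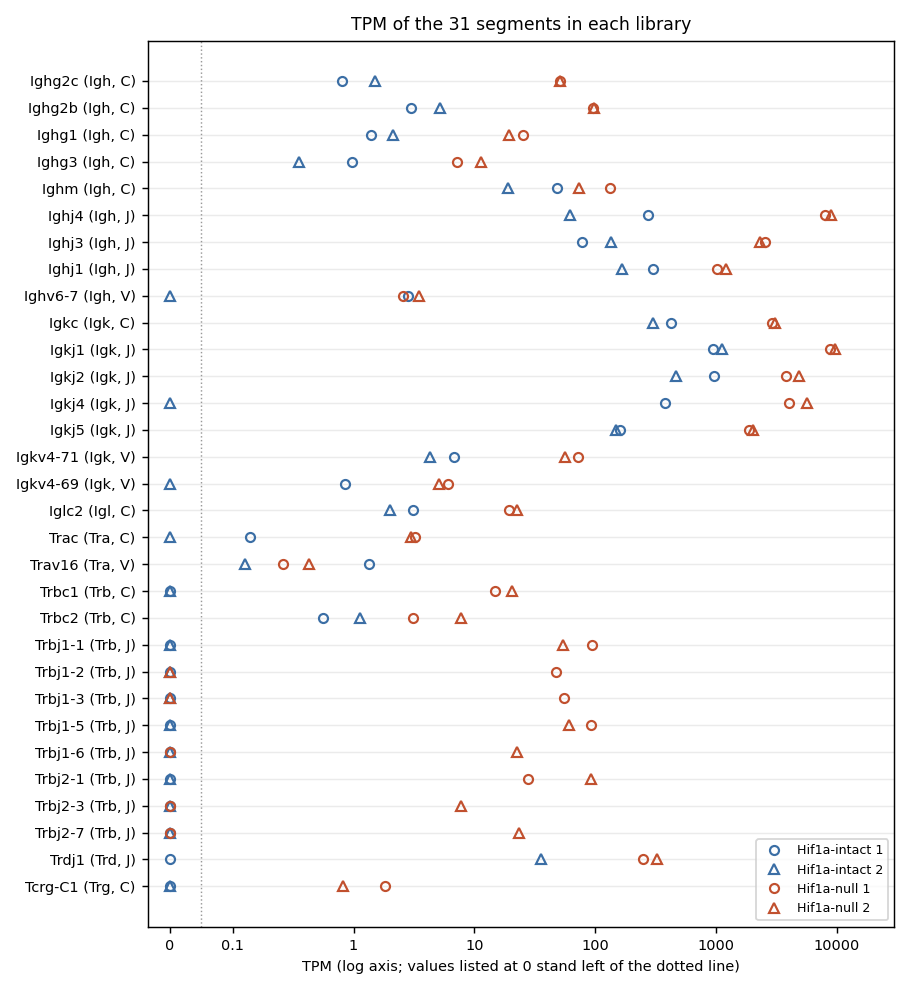
Each row is 1 of the 31 segments, with its locus and class in brackets (C constant, J joining, V variable), and each symbol is the TPM of 1 library on a log axis, with values listed at 0 left of the dotted line. In 24 rows both libraries labelled Hif1a-null stand to the right of both of the Hif1a-intact pair, and 10 rows have both of the Hif1a-intact pair at 0.

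The kappa light chain locus, on chromosome 6 of GRCm38, held the largest summed TPM in every library. Igkc, the single kappa constant gene (ENSMUSG00000076609, 70726435 to 70726966, plus strand, 532 bases), read 425 and 302 TPM in the Hif1a-intact pair and 2934 and 3063 TPM in those labelled Hif1a-null. Its ratio of group means was 8.25, and its place among all genes by mean TPM was 324 in the Hif1a-intact group and 41 in the group labelled Hif1a-null. Igkc was thus readily found in all 4 libraries, with the 2 groups far apart and the libraries within each group close to each other.

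The kappa J segments lie in 1 row before Igkc, and 4 of the 5 were members. Igkj1 (70722562 to 70722599) read 944 and 1112 TPM against 8728 and 9695 TPM, a ratio of 8.96. Igkj2 (70722916 to 70722958) read 961 and 464 TPM against 3827 and 4852 TPM, a ratio of 6.09. Igkj5 (70723886 to 70723927) read 159 and 149 TPM against 1889 and 2039 TPM, a ratio of 12.7. These ratios lie on both sides of that of Igkc, and in each of the 3 segments the groups did not overlap. Igkj4 (70723548 to 70723585) read 375 TPM and was listed at 0 in the Hif1a-intact pair, and read 4009 and 5700 TPM in the others. Igkj3 was listed at 0 in all 4 libraries. Summed over the 4 segments, J TPM was 5.73 and 5.72 times Igkc TPM in the Hif1a-intact pair and 6.29 and 7.28 times in those labelled Hif1a-null. The 4 J segments and Igkc lie inside the annotated span of the long non-coding RNA gene Gm30211 on the same strand, for which no value was used here.

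Only 2 V segments of the kappa locus were members. Igkv4-71 (69243158 to 69243688, minus strand) read 6.74 and 4.32 TPM against 71.6 and 56.5 TPM, a ratio of 11.6. Igkv4-69 (69283794 to 69284319, minus strand) read 0.851 TPM and was listed at 0 in the Hif1a-intact pair, and read 6.07 and 5.08 TPM in the others. Of their 31-base words, 65.1% and 50% also occur in transcripts of other genes, mostly other members of the Igkv4 family, so these values may hold reads from related V segments. The table used here has rows for 2 of 102 annotated Igk V segments and for 2 of 113 Igh V segments, so V usage was not analysed here.

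The lambda light chain was represented by 1 member. Iglc2 (chromosome 16, 19198396 to 19200351, minus strand) read 3.08 and 1.99 TPM against 19.5 and 22.5 TPM, a ratio of 8.28, and shares 19.6% of its words with other genes, chiefly Iglc3. Kappa made up 99.3% of light chain constant TPM in each of the 4 libraries (99.28%, 99.34%, 99.34% and 99.27%). The table used here has rows for 1 of 4 annotated Igl constant genes, so this share sets Igkc against Iglc2 alone. The balance of these 2 genes was nearly the same in all 4 libraries, with ratios of 8.25 and 8.28.

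The heavy chain locus, on the minus strand of chromosome 12, differed between its segments by more than the kappa locus did. Ighm (ENSMUSG00000076617, 113418558 to 113422730), the constant gene of IgM, read 48.7 and 18.9 TPM in the Hif1a-intact pair and 133 and 72.9 TPM in those labelled Hif1a-null. Its ratio of 3.05 was the smallest among the constant members with values above 0 in all 4 libraries, and its replicates lay 2.57 and 1.83 times apart. The IgG genes differed much more between the groups.

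Ighg2b (113302965 to 113307933) read 2.998 and 5.20 TPM against 95.2 and 97.1 TPM, a ratio of 23.5. Ighg2c (113285325 to 113288932), the IgG2 gene that C57BL/6 mice carry in place of Ighg2a, read 0.809 and 1.52 TPM against 50.8 and 51.1 TPM, a ratio of 43.8. Both read nearly alike in the 2 libraries labelled Hif1a-null. Ighg1 (113325240 to 113330523) read 1.39 and 2.13 TPM against 25.1 and 19.3 TPM, a ratio of 12.7. Ighg3 (113356224 to 113361232) read 0.978 and 0.352 TPM against 7.21 and 11.4 TPM, a ratio of 13.98. The groups did not overlap for any of the 4 IgG genes. The IgG genes share 1.72% (Ighg1) to 14.98% (Ighg2c) of their 31-base words with each other, so some reads could have moved between them, while Ighm shares none with another gene. Ighe, the IgE constant gene, did not reach the threshold of 1 TPM: it was listed at 0 in both of the Hif1a-intact pair and read 0.150 and 0.268 TPM in the others.

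The make-up of the summed TPM of the 5 heavy chain constant members therefore differed between the groups. The table used here has rows for 6 of 8 annotated Igh constant genes. It has none for Igha and Ighd, the IgA and IgD genes, so their part is unknown. Ighm was 88.8% and 67.3% of the sum over members in the Hif1a-intact pair and 42.8% and 29.0% in those labelled Hif1a-null. The 4 IgG genes held the rest. Ighg2b was 5.46% and 18.5% against 30.6% and 38.6%, and Ighg2c 1.47% and 5.39% against 16.3% and 20.3%. The groups did not overlap for these 3 genes. Ighg1 was 2.52% and 7.56% against 8.07% and 7.67%, so its groups lay next to each other. The Hif1a-intact shares rest on 54.9 and 28.1 TPM in all, with the IgG genes at 6.17 and 9.20 TPM.

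**Figure D3:**
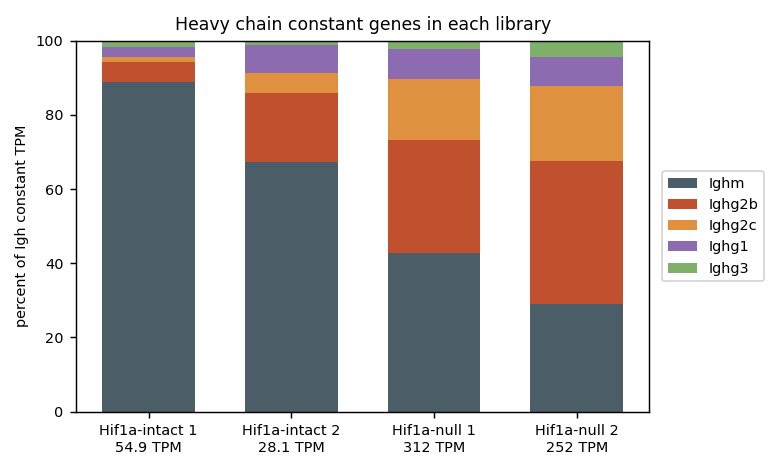
Each bar is 1 library and shows how the summed TPM of Ighm and the 4 IgG genes divides among them, in percent, with that sum under the bar. Ighm makes up 88.8% and 67.3% in the Hif1a-intact pair and 42.8% and 29.0% in those labelled Hif1a-null, and the difference is mostly Ighg2b and Ighg2c.

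The heavy chain J segments differed from each other too. Ighj4 (113428514 to 113428567) read 272 and 61.4 TPM against 7976 and 9041 TPM, a ratio of 51.1. Ighj3 (113429085 to 113429132) read 77.3 and 136 TPM against 2558 and 2328 TPM, a ratio of 22.9. Ighj1 (113429781 to 113429833) read 301 and 168 TPM against 1017 and 1213 TPM, a ratio of 4.76. None of the 3 had overlapping groups, and Ighj4, the J segment nearest to Ighm, had the highest ratio. Ighj1 was 46.3% and 45.9% of heavy chain J TPM against 8.81% and 9.64%, and Ighj4 41.8% and 16.8% against 69.1% and 71.9%. Ighj2 was listed at 0 in all 4 libraries. Summed J TPM at Igh was 11.8 and 12.97 times the summed TPM of its constant members in the Hif1a-intact pair. It was 37.1 and 49.95 times that sum in those labelled Hif1a-null, a wider gap than at Igk. The Igh constant sum lacks Igha and Ighd, which have no values here, while the single constant gene of Igk was measured. Whether the gap would stay wider with Igha and Ighd counted is therefore unknown. Ighv6-7 (114455626 to 114456083), the only heavy chain V member, read 2.83 TPM and was listed at 0 in the Hif1a-intact pair and read 2.57 and 3.47 TPM in the others, with overlapping groups.

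**Figure D4:**
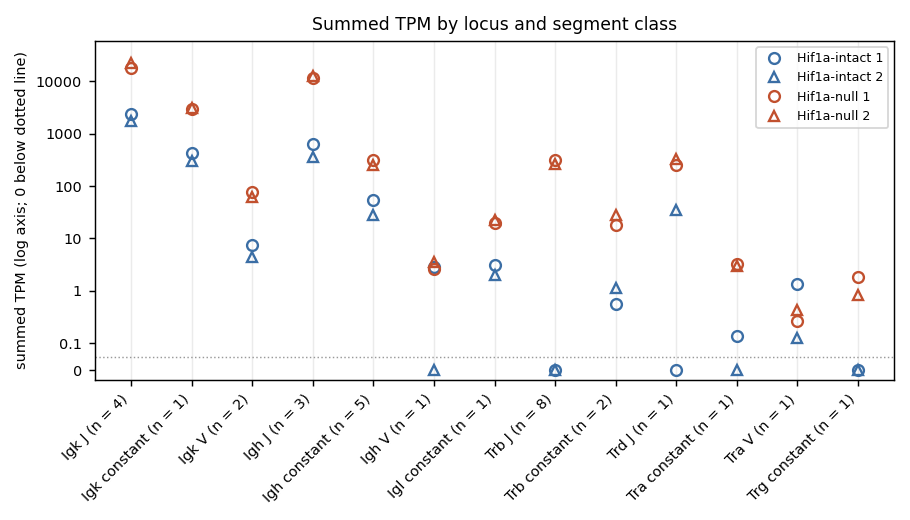
Each column is a locus and segment class with its number of members, and each symbol is the summed TPM of 1 library on a log axis, with 0 below the dotted line. The 2 libraries labelled Hif1a-null stand above both of the Hif1a-intact pair in every column except Igh V and Tra V, and the J and constant columns of Igk and Igh exceed the T cell receptor columns of the same class in each library.

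T cell receptor segments were rarer by far. They summed to 2.04 and 36.9 TPM in the Hif1a-intact pair and 590 and 621 TPM in those labelled Hif1a-null, most of it from J segments except in the first Hif1a-intact library, where no T cell receptor J segment was above 0. In the constant genes the immunoglobulin loci held 99.9% and 99.7% of TPM against 99.3% and 99.0%.

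The beta chain had both of its constant genes and 8 of 13 J segments among the members, all on the plus strand of chromosome 6. Trbc1 (41538218 to 41539881) was listed at 0 in both of the Hif1a-intact pair and read 14.7 and 20.7 TPM in the others. Trbc2 (41546730 to 41548352) read 0.556 and 1.13 TPM against 3.09 and 7.70 TPM, a ratio of 6.41. These 2 genes share 44.8% and 48.5% of their 31-base words, all with each other, so the split between them is uncertain, and their sum was 0.556 and 1.13 TPM against 17.8 and 28.4 TPM. All 8 beta J members were listed at 0 in both of the Hif1a-intact pair. Of these, Trbj1-1 (94.0 and 54.1 TPM), Trbj1-5 (93.1 and 61.2 TPM) and Trbj2-1 (27.9 and 91.9 TPM) were above 0 in both libraries labelled Hif1a-null. Each of the other 5 was above 0 in 1 library: Trbj1-2 at 47.0 TPM and Trbj1-3 at 54.7 TPM in replicate 1, and Trbj1-6 at 22.6 TPM, Trbj2-3 at 7.69 TPM and Trbj2-7 at 23.3 TPM in replicate 2. The beta J segments were thus seen only in the libraries labelled Hif1a-null, but 5 of the 8 not in both of them.

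The other T cell receptor loci gave few members. Trac, the alpha constant gene (chromosome 14, 54220521 to 54224206), read 0.139 TPM and was listed at 0 in the Hif1a-intact pair and read 3.26 and 3.01 TPM in the others, and it shares no words with another gene. All 50 alpha J rows of the table were listed at 0 in every library. Trdj1 (54123138 to 54123188), a delta J segment, was listed at 0 and read 35.7 TPM in the Hif1a-intact pair, and read 250.0 and 327 TPM in the others. It overlaps the antisense gene Gm30275 on the other strand, and without a stated strand setting their reads cannot be told apart. Trdj1 was the only T cell receptor J segment above 0 in a Hif1a-intact library.

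Values near the threshold were low in every library. Just inside 1 TPM by their highest library were Trav16 (chromosome 14, 53743104 to 53743705), at 1.34 and 0.126 TPM against 0.261 and 0.430 TPM, Tcrg-C1, a gamma constant gene (chromosome 13, 19214103 to 19217024), listed at 0 in both of the Hif1a-intact pair and at 1.81 and 0.816 TPM in the others, and Trac. Just outside were B230359F08Rik at 0.733 TPM, Trav13-2 at 0.458 TPM and Trav15-2-dv6-2 at 0.383 TPM in their highest library, all annotated as T cell receptor V genes. Of the 77 segment rows outside the rule, 71 were listed at 0 in all 4 libraries.

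Genes that recombine the segments were tested in the same limma fit, as they are no members. Of 15 genes of V(D)J recombination, all tested, 4 rose and 0 fell. Dntt, the terminal transferase that adds untemplated bases at the junctions, rose from 9.41 and 10.2 TPM to 189 and 188 TPM (log2 fold change 4.13, SE 0.13, adjusted p = 0.00349). Rag1 and Rag2, which encode the recombinase that cuts at the segments, were low: Rag1 was listed at 0 in both of the Hif1a-intact pair and read 2.93 and 3.18 TPM in the others (adjusted p = 0.0070), and Rag2 rose from 0.198 and 0.287 TPM to 4.90 and 5.28 TPM (adjusted p = 0.00644). Xrcc5, which encodes Ku80 of the end-joining machinery, rose from 0.962 and 1.34 TPM to 7.47 and 7.25 TPM (adjusted p = 0.00935). Rag1 and Rag2 were under 1 TPM in both of the Hif1a-intact pair, so the filter fixed their direction. The other 11, among them Prkdc, Lig4, Xrcc4 and Xrcc6 of the general DNA repair machinery, were not called. The median log2 fold change of the 15 was 0.26, against -0.06 over all genes tested. In the fits without 1 library labelled Hif1a-null Rag1 and Rag2 could not pass the filter. Xrcc5 lost its call in both of these fits, and Dntt lost it without replicate 2.

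Of the 14 partners of the pre-B and B cell receptors, 11 were tested, of which 6 rose and 0 fell (median log2 fold change 1.87). That median takes in 5 genes whose direction the filter fixed. Blnk, an adaptor of B cell receptor signalling, rose from 1.404 and 1.25 TPM to 18.3 and 15.6 TPM (adjusted p = 0.00511). Igll1, a surrogate light chain component, was listed at 0 in both of the Hif1a-intact pair and read 2.68 and 2.65 TPM in the others (adjusted p = 0.00763), and Cd79a, a signalling chain of the receptor, rose from 0.356 and 0.111 TPM to 4.18 and 3.26 TPM (adjusted p = 0.0147). All but Blnk of the 6 that rose were under 1 TPM in both of the Hif1a-intact pair, so the filter fixed their direction. In the fits without 1 library labelled Hif1a-null these genes could not pass the filter and were not tested. Blnk was tested in both such fits and lost its call. Even in the libraries labelled Hif1a-null, Blnk, Igll1 and Cd79a stayed under 20 TPM beside an Igkc of 2934 and 3063 TPM. The other 5 tested partners, Cd79b, Btk, Syk, Lyn and Cd72, were not called. Cd79b read 9.97 and 6.12 TPM against 9.44 and 7.91 TPM, and Btk, Syk and Lyn were above 20 TPM in every library.

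Among 12 B-lineage transcription factors 9 were tested, of which 4 rose and 1 fell (median log2 fold change 0.94). That median takes in 4 genes whose direction the filter fixed. Ebf1, which sets the early B cell programme, rose from 0.186 and 0.0573 TPM to 1.44 and 1.29 TPM (adjusted p = 0.0267), Lef1 from 0.0937 and 0.120 TPM to 1.37 and 1.36 TPM (adjusted p = 0.02001), and Pou2af1, a coactivator at immunoglobulin promoters, from 0.428 and 0.153 TPM to 2.60 and 4.01 TPM (adjusted p = 0.0290). Sox4 fell from 52.3 and 52.3 TPM to 30.5 and 30.1 TPM (adjusted p = 0.0420). All 4 that rose were under 1 TPM in both of the Hif1a-intact pair, so their direction too was fixed by the filter. In the fits without 1 library labelled Hif1a-null these 4 could not pass the filter and were not tested. Sox4 lost its call in each of the 4 fits that left out 1 library. Under quantile normalization the list held 1 gene called higher and 0 called lower, and Ebf1, Lef1, Pou2af1 and Sox4 were not called.

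Of the 14 partners of the T cell receptor 7 were tested, of which 2 rose and 0 fell (median log2 fold change 0.61). That median takes in 2 genes whose direction the filter fixed, Cd3g and Cd28. Cd3g, a chain of the CD3 complex, was listed at 0 and read 0.294 TPM in the Hif1a-intact pair and read 3.36 and 6.87 TPM in the others (adjusted p = 0.0348, and 0.0353 to 0.0913 over its alternatives), and Lck, the kinase of the T cell coreceptors, rose from 5.17 and 3.93 TPM to 22.1 and 22.0 TPM (adjusted p = 0.0101). Cd3g was under 1 TPM in both of the Hif1a-intact pair, so the filter fixed its direction. Cd4 read 0.380 and 3.40 TPM against 5.88 and 9.58 TPM (adjusted p = 0.200) and Cd28 0.561 and 0.499 TPM against 1.43 and 1.24 TPM (adjusted p = 0.0812). Cd3e, Cd3d, Zap70, Cd8a and Cd8b1 were under 1 TPM in all 4 libraries and Ptcra, the pre-T cell receptor alpha chain, was listed at 0 in all 4. In the fits without 1 library labelled Hif1a-null Cd3g could not pass the filter, and Lck was tested and lost its call.

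**Figure D5:**
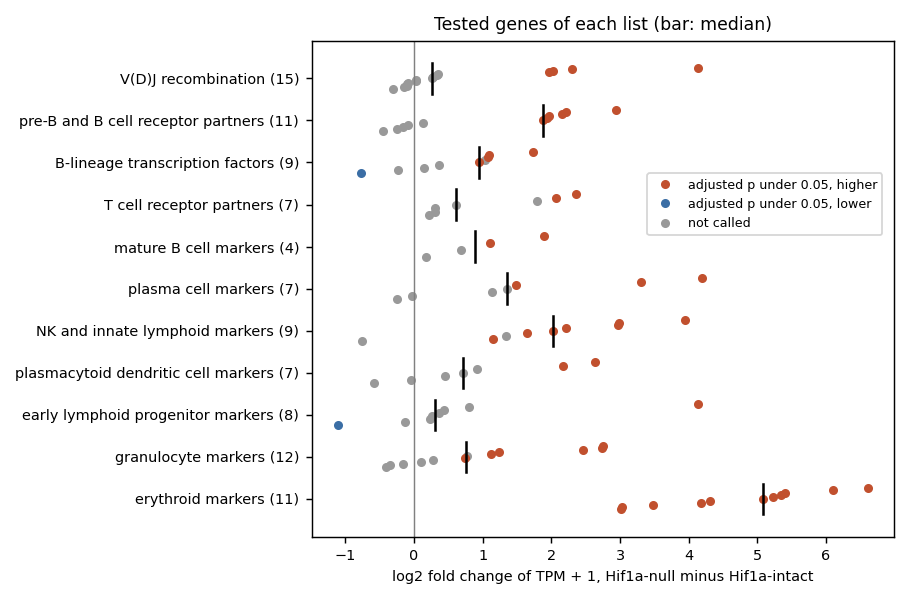
Each point is 1 tested gene of a list, at its log2 fold change of TPM + 1 (Hif1a-null minus Hif1a-intact), coloured by its limma call, with the number of tested genes beside the list and a bar at the list's median. Dntt stands apart from the other recombination genes at 4.13, and all 11 erythroid markers were called higher. The medians take in genes whose direction the filter fixed.

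Markers of cell types that could carry these transcripts differed beside the segments, and their part in the segment values was not tested. Of the 10 plasma cell markers 7 were tested and 3 rose: Jchain, which links IgM and IgA units, from 26.7 and 34.4 TPM to 289 and 327 TPM (adjusted p = 0.00611), Mzb1, an antibody-folding factor, from 0.591 and 0.277 TPM to 23.1 and 27.3 TPM (adjusted p = 0.00480), and Irf4 from 0.297 and 0.440 TPM to 2.77 and 2.85 TPM (adjusted p = 0.0127). The filter fixed the direction of Mzb1 and Irf4, which were under 1 TPM in both of the Hif1a-intact pair. Fkbp11 read 1.35 and 0.630 TPM against 4.47 and 3.54 TPM (adjusted p = 0.0524), and Prdm1, the plasma cell regulator, was under 1 TPM in every library. The whole plasma cell list summed to 194 and 170 TPM against 471 and 501 TPM, and Jchain was most of the latter 2 sums. Like Fkbp11, the other tested markers of this list were not called. Of these, Sdc1 was higher in both libraries labelled Hif1a-null (13.1 and 8.10 TPM against 23.2 and 24.4 TPM). Xbp1 was lower in both (122 and 106 TPM against 101 and 90.6 TPM), and Tnfrsf13b overlapped (28.8 and 20.2 TPM against 24.6 and 23.0 TPM). Of the 9 mature B cell markers 4 were tested and 2 rose, Cd74 and Cd55, the latter from under 1 TPM in both of the Hif1a-intact pair and so with its direction fixed by the filter. Ms4a1, which encodes CD20, read 0.385 and 0.0301 TPM against 1.19 and 0.642 TPM, and Cr2, Fcer2a and Fcmr were under 1 TPM in all libraries. That list summed to 313 and 482 TPM against 499 and 543 TPM, most of it class II genes that other cells also express.

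Among 14 NK and innate lymphoid markers 9 were tested and 7 rose, with Ncr1 going from 0.283 and 0.0221 TPM to 16.3 and 17.1 TPM (adjusted p = 0.00471) and Il2rb from 0.419 and 0.381 TPM to 9.56 and 10.4 TPM (adjusted p = 0.00480). Of the 7 that rose, 5 were under 1 TPM in both of the Hif1a-intact pair, so the filter fixed their direction. The list summed to 192 and 299 TPM against 217 and 235 TPM, mostly Nkg7 (177 and 284 TPM against 122 and 144 TPM). Among 11 plasmacytoid dendritic cell markers 7 were tested and 2 rose, Siglech (1.72 and 1.41 TPM against 15.3 and 14.6 TPM, adjusted p = 0.00552) and Ly6d (1.52 and 1.53 TPM against 9.32 and 11.4 TPM, adjusted p = 0.00842). That list summed to 129 and 142 TPM against 168 and 156 TPM, and Klk1 was listed at 0 in all 4 libraries. The other 5 tested markers of the list were not called. Of these, Tcf4 and Cd209d were higher in both libraries labelled Hif1a-null. Lair1 was lower in both (35.8 and 46.4 TPM against 28.5 and 25.4 TPM). Irf8 (48.0 and 63.5 TPM against 57.0 and 50.4 TPM) and Bst2 overlapped. Of 9 early lymphoid progenitor markers 8 were tested, of which Dntt rose and Cnn3 fell (29.1 and 23.8 TPM against 11.6 and 11.8 TPM, adjusted p = 0.0332). Flt3 (31.8 and 18.7 TPM against 32.1 and 31.1 TPM) and Il7r (0.476 and 1.10 TPM against 2.30 and 1.84 TPM) were not called. The list summed to 662 and 801 TPM against 933 and 942 TPM.

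Beside the lists above, only erythroid and granulocyte markers were examined, and some of both differed. All 11 erythroid markers rose, with their sum going from 128 and 90.8 TPM to 6910 and 7364 TPM. The filter fixed the direction of 3 of them, Klf1, Epor and Alas2, which were under 1 TPM in both of the Hif1a-intact pair. Of 12 granulocyte markers 6 rose and 0 fell, with sums of 32848 and 28860 TPM against 41759 and 40600 TPM. Elane, Mpo, Prtn3, Ctsg, Camp and S100a8 were not called. Most of each sum was Camp, S100a8 and S100a9, of which only S100a9 was called. With at least 1 TPM asked in all 4 libraries, fewer markers were tested. Of those tested, 4 of 4 erythroid and 5 of 12 granulocyte markers were called higher. So were 1 of 3 NK, 1 of 4 plasma cell and 1 of 3 mature B cell markers. For the plasmacytoid dendritic cell list it was 2 of 6, and for the early lymphoid list 1 of 7. Without replicate 1 labelled Hif1a-null, 3 erythroid markers and 1 early lymphoid marker were called higher and 0 of the other marker lists, and without replicate 2, 0 of any marker list were called. Cnn3 too lost its call without either of these libraries. Markers under 1 TPM in both of the Hif1a-intact pair could not pass the filter in these fits and were not tested there.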

How the data were processed

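RNA sequencing was done on CD117-selected bone marrow cells, with 2 libraries per genotype label. The deposited table holds a TPM value per gene and library, made by the authors with kallisto on mm10, per the submitters' processing notes. The unit was inferred from column sums of 955562 to 963135. For the transcript set, effective lengths and strand: not given in the sources used here. TPM keeps no counts, so depth is unknown. Biotypes, symbols, coordinates and transcript sequences are those of GENCODE vM21 (GRCm38, also called mm10), found for 27458 of 28987 identifiers.

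limma 3.58.1 (R 4.3.3; two-sided; trend and robust off) was fitted to log2(TPM + 1). A gene entered if 2 or more libraries had 1 TPM or more, which left 11909. P-values were adjusted by Benjamini-Hochberg over all of them, with a threshold of 0.05, and are the adjusted p-values in the text. That scale understates changes of low genes. Ratios of group means use plain TPM and are given where both Hif1a-intact libraries are above 0. The fit was tested on simulated data, where it called 0% of changes of log2 size 1 and 16% of size 2. It called 76% of size 3 and 88% of size 5, so a gene that was not called may still differ. The simulated spread was drawn at random for each gene around the pooled replicate spread, and few genes were changed. These percentages may therefore differ from the power in the real data, where Ngp was called at a log2 fold change of 0.74. Shared words are 31-base stretches that also occur, on either strand, in annotated transcripts of other genes.

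The naming rule took Hif1a, Runx1, all constant members, the 4 V or J segments of highest mean TPM at each locus, those next to the threshold, and up to 4 genes of smallest unadjusted p per list. The remaining members, and other genes named from lists (such as Kit, Cd3e, Prdm1, Ms4a1, Nkg7 and Flt3), were added after seeing their values. A gene that the rule took from a list is not reported here. Members and lists were chosen with earlier results of these data known. Alternatives covered pseudocounts, filters, scalings, the variance model, the member threshold, short segments and each library left out. Plots used matplotlib 3.10.9 (Python 3.11.15).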

Additional observations from a re-analysis of the deposited data

How the results depend on the processing

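No paired analysis was possible because the labels give the groups no shared replicate numbers. With at least 1 TPM asked in all 4 libraries, which drops genes low in 1 group, calls went from 625 higher and 241 lower to 203 and 131 over all genes, from 19 to 11 for segments, from 4 to 1 for recombination genes, from 6 to 1 for B cell receptor partners, from 4 higher and 1 lower to 0 and 0 for B-lineage factors and from 2 to 1 for T cell receptor partners. With no filter, 138 genes were called lower, and 2 B-lineage factors and 1 T cell receptor partner higher. Quantile normalization gave 1 B-lineage factor and 1 T cell receptor partner higher, and 0 B-lineage factors lower. Median-ratio rescaling and a pseudocount of 0.1 also gave 0 B-lineage factors lower. The cause was not tested. Leaving out 1 library in turn gave 0 to 731 genes higher and 0 to 288 lower, 0 to 21 segments higher, 0 to 4 recombination genes, 0 to 6 B cell receptor partners, 0 to 3 B-lineage factors and 0 to 1 T cell receptor partners higher, and 0 B-lineage factors lower. The low end came without a library labelled Hif1a-null, when the spread rests on the Hif1a-intact pair: without replicate 1, 11 genes were higher and 8 lower, and without replicate 2, 0 and 0. Among marker lists, leaving out 1 library in turn gave 0 to 11 erythroid, 0 to 8 NK, 0 to 6 granulocyte, 0 to 5 plasma cell, 0 to 4 plasmacytoid dendritic cell, 0 to 3 mature B cell and 0 to 1 early lymphoid markers higher. The difference in segment share of TPM, Hif1a-null minus Hif1a-intact, was 3.47 percentage points (3.21 to 3.72 with 1 library left out). It was 0.310 without segments under 100 bases, 4.18 over protein-coding genes and segments only and, chosen after seeing the data, 1.29 without Igk and 2.24 without Igh. The difference in constant share of segment TPM was -4.33 points (-4.85 to -3.82), -0.304 without short segments and, chosen after seeing the data, -10.96 with TPM weighted by transcript length. None of 43 named list genes changed direction with a call in its alternatives, and 49 of 365 values lost a call, most of them without a library labelled Hif1a-null. These values cover only alternatives in which the gene passed the filter. Rag1, Rag2, Igll1, Mzb1, Ncr1 and Alas2 did not pass it with 1 TPM asked in all 4 libraries or without either library labelled Hif1a-null. Calls that ended in this way are not among the 49.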
